A study of Homo sapiens with 26 samples.

Results

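Compound 40 was compared with compound 76 in 786-O cells, by 3 arrays titled 40 and 3 arrays titled 76, which are 6 of the 26 arrays of the study. The arrays were chosen by their titles, and all 54675 probe sets of the value table entered. 786-O is a cell line of a human clear cell renal carcinoma. It has no working VHL, part of the ubiquitin ligase that sends HIF-alpha subunits to the proteasome. The study treated these cells with 4 numbered inhibitors of HIF-2a, found in a chemical genetic screen, and titled its question around the translation of HIF-2a and the iron-responsive element in the leader of its mRNA. Gene expression was read from total RNA on Affymetrix U133 Plus 2.0 arrays. The groups used here were cells given compound 40, cells given compound 76 and cells given the vehicle DMSO, with 3 arrays each. Each of these groups is the same VHL-deficient line. The spread behind the p-values also drew on the groups titled 41, 77, Blk, PRC3 and WT8, which are not compared here. PRC3 and WT8 are sublines. The numbers were taken as compounds because the design text names untreated cells, DMSO and 4 compounds. The sources used here give no structure, dose or treatment time, so whether the doses matched is unknown, and 1 pair of compounds was compared. The labels do not say whether each array had its own culture, so the p-values cover the spread among arrays, which may be technical only.

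HIF-2a, encoded by EPAS1, is a transcription factor that pairs with ARNT and turns on genes for blood vessel growth, glucose uptake and red cell production. Cells without VHL accumulate it without a lack of oxygen. Iron-regulatory proteins bind iron-responsive elements and block or stabilise the mRNA that carries them. NRF2 is a separate transcription factor of the stress response. KEAP1 holds it down until electrophiles or oxidants modify KEAP1, and NRF2 then pairs with small MAF proteins on antioxidant response elements and turns on enzymes of drug metabolism, glutathione synthesis and heme breakdown.

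The columns of the 3 compound 40 arrays were not made alike. Of the 26 deposited columns, 24 shared a mean signal near 142.79. Array 2 of compound 40 had a mean of 166, array 3 had 174, and all 54675 of their values were distinct, against 6419 distinct values on array 1. Signals were therefore quantile normalized before the comparison, with a floor of 20. Array 2 of compound 40 still stood apart from its fellows, with 4.74% of kept probe sets more than 2-fold away from both other arrays, against 2.06% and 1.22% for arrays 1 and 3, and 0.711% to 1.75% for the compound 76 arrays. The 3'/5' signal ratio of the actin control probe sets was 1.09, 1.32 and 1.25 in compound 40 and 1.15, 1.06 and 1.01 in compound 76. PAX2, PAX8, KRT8, KRT18, CDH2 and VIM, of the 9 renal markers found on the array, were above 100 on all 6 arrays, and CDH16 was at the floor. The summed leukocyte markers were 80.7 to 91.1 with compound 40 and 80 with compound 76, and the leukocyte genes PTPRC and CD14 were at the floor. The sums of the fibroblast markers were 107 to 137 and 128 to 140, and those of the endothelial markers 149 to 195 and 178 to 252, for compound 40 and compound 76 in that order, with VWF and CDH5 at the floor.

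Cells given compound 40 had lower signals of a set of NRF2 targets than cells given compound 76, and few genes went the other way. AKR1C2 was 4.88-fold lower, HMOX1 3.20-fold lower and GCLM 1.82-fold lower. USP16, a histone H2A deubiquitinase, was 2.25-fold higher and ROMO1, a small mitochondrial inner membrane protein, 1.75-fold higher. Of 35013 probe sets tested with limma, 44 (0.126%) passed an adjusted p of 0.05, 10 higher (0.0286%) and 34 lower (0.0971%) with compound 40. In signals as deposited the split was 24 higher and 23 lower. With 1 probe set per gene, 24 of 15124 genes (0.159%) were called, 3 higher (0.0198%) and 21 lower (0.139%). In all 24 genes the 3 compound 40 arrays lay wholly on 1 side of the 3 compound 76 arrays, which also held for 821 of all genes upward (5.43%) and 1172 downward (7.75%). In bulk RNA of a culture, a lower signal in every cell and fewer cells with that signal cannot be told apart.

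These calls rest on the spread pooled over the 24 arrays of 8 groups. Of these arrays, array 3 of WT8 had an actin 3'/5' ratio of 2.37, against 1.39 or less on the others. Immediate early genes had a mean log2 signal of 9.29 and 9.44 on array 3 of PRC3 and of WT8. On the other arrays of those groups it was 7.44 to 8.07. What such arrays add to the spread was not tested. A fit to the 6 arrays alone made 0 calls in limma, with 2692 probe sets at an unadjusted p below 0.05. With array 1 of compound 40 alone in its group, which leaves out both differently made columns, 17 probe sets and 6 of the 24 genes were called, and all 24 genes kept their direction. Leaving out arrays 1, 2 and 3 of compound 40 in turn kept 21, 14 and 14 of the 24 called, and leaving out those of compound 76 kept 20, 11 and 6. USP16, ROMO1, BEX5, AKR1C2, CYP4F11 and GCLM were called in all 6 of these fits.

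**Figure D1:**
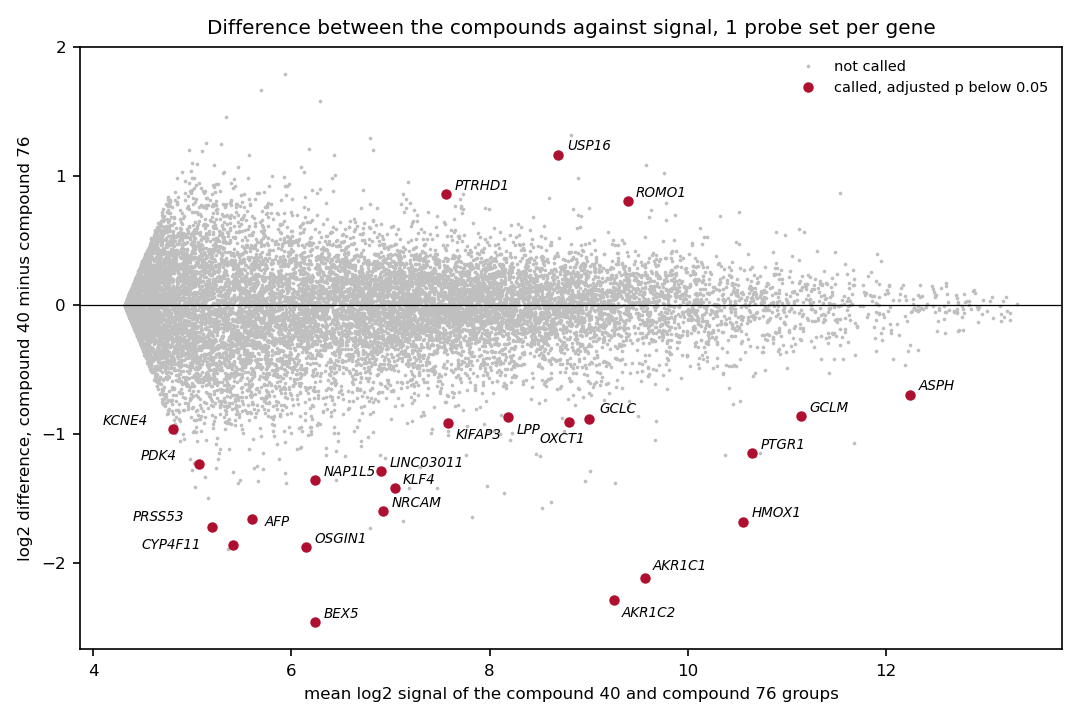
Log2 difference between compound 40 and compound 76 (vertical axis) against the mean log2 signal of both groups (horizontal axis), 1 point per gene for 15124 genes. The 24 called genes are in red and named: 3 lie above 0 and 21 below, the lowest being BEX5 at -2.45 and AKR1C2 at -2.29.

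The vehicle places these differences. Of the 35013 probe sets, 240 (0.685%) were called between compound 40 and DMSO, 119 higher (0.34%) and 121 lower (0.346%). Between compound 76 and DMSO 474 (1.35%) were called, 262 higher (0.748%) and 212 lower (0.605%). By gene, against DMSO, compound 40 had 128 of 15124 genes called (0.846%), 66 higher (0.436%) and 62 lower (0.41%). Compound 76 had 269 (1.78%), 154 higher (1.02%) and 115 lower (0.76%). Same-numbered arrays of compound 76 and DMSO deviated together, and with the replicate number as a block compound 76 had 849 probe sets called, and by gene 272 higher (1.8%) and 214 lower (1.41%), among them all 269 genes called without it. Both comparisons share the same 3 DMSO arrays and are given side by side. Of the 21 genes called lower with compound 40 than with compound 76, 17 were called higher than DMSO with compound 76, and 8 were called higher than DMSO with both compounds. Of the 3 genes called higher with compound 40, 2 were called lower than DMSO with compound 76 and 0 were called in either direction between compound 40 and DMSO. Probe sets of MYLIP and CLSPN other than their brightest were also called higher with compound 40 (1.27 and 1.00, limma adjusted p = 0.00391 and 0.00656). Both were called higher than DMSO with compound 40, with compound 76 and DMSO at the floor. A probe set of SPTLC2 was called higher too (1.55, adjusted p = 0.026), with compound 76 called lower than DMSO. By their brightest probe sets MYLIP, CLSPN and SPTLC2 were not called.

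Targets of NRF2 were listed in 3 groups by role, 36 in all, and 34 were measured. Compound 40 had 8 of the 34 called lower and 0 called higher than compound 76, against 0.139% and 0.0198% of all genes. Without the adjustment, 18 were lower and 0 higher at a p below 0.05, against 6.16% lower and 3.76% higher of all genes. The median log2 difference of the 34 was -0.43, against -0.01 over all genes, and 29 were negative. The mean log2 signal of the 34 was 9.08, 9.19 and 9.14 on the compound 40 arrays, 9.70, 9.72 and 9.84 on the compound 76 arrays and 8.07, 8.03 and 8.10 on the DMSO arrays. Compound 40 thus lay between compound 76 and DMSO on every array. Against DMSO, 18 of the 34 were called higher with compound 40 and 22 with compound 76, 16 of them with both, and 0 were called lower with either at an adjusted or an unadjusted p. With the replicate block 24 were called higher and 0 lower with compound 76. The list was written with earlier results of these arrays known, so its direction is a description.

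The list of heme and drug metabolism was the largest group of NRF2 targets. Of its 19 measured members 6 were called lower with compound 40, and the median log2 difference of the list was -0.59. It holds enzymes that handle heme, carbonyls and drugs, and also other genes such as OSGIN1. HMOX1, heme oxygenase 1, which splits heme and frees its iron, had signals of 725, 1238 and 568 with compound 40, 1714, 3708 and 2632 with compound 76, and 109.5, 77.8 and 84.6 with DMSO. Every compound 40 array was below every compound 76 array and above every DMSO array. The log2 difference between compounds was -1.68 (SE 0.27, adjusted p = 0.00656), beside 3.16 for compound 40 over DMSO and 4.83 for compound 76 over DMSO. Without array 3 of compound 40, or without array 2 or 3 of compound 76, HMOX1 was no longer called, with differences of -1.43, -1.41 and -1.66.

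AKR1C2, an aldo-keto reductase that inactivates steroid hormones, had 225, 348 and 262 with compound 40, 1365, 1423 and 1223 with compound 76, and 45.8, 43.7 and 66.6 with DMSO. The groups formed separate steps with no overlap. The log2 difference was -2.29 (SE 0.27, adjusted p = 0.000183), and both of its probe sets were called lower. AKR1C1, its neighbour on chromosome 10, had 235, 485 and 395 with compound 40, 1587, 1493 and 1546 with compound 76, and 74.5, 65.0 and 59.4 with DMSO. The log2 difference was -2.12 (SE 0.34, adjusted p = 0.00656). AKR1C1 and AKR1C2 are nearly identical in sequence, and 1 further called probe set is annotated to both, so their signals cannot be fully separated; 2 of the 4 AKR1C1 probe sets were called. Without array 3 of compound 76 the AKR1C1 difference was -2.11 and its adjusted p 0.0538.

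PTGR1, prostaglandin reductase 1, had 1067, 1338 and 857 with compound 40, 2270.3, 2298 and 2534 with compound 76, and 534, 399 and 426 with DMSO. All 3 of its probe sets were called lower, and the reported one differed by -1.14 (SE 0.21, adjusted p = 0.0195). OSGIN1, a growth inhibitor induced by oxidative stress, was at 20, 83.9 and 20.6 with compound 40, at 92.6, 134 and 138 with compound 76, and at the floor of 20 on all DMSO arrays. Its compound 40 signal came mainly from array 2, with array 1 at the floor, which limits the log2 difference of -1.88 (SE 0.36, adjusted p = 0.0272). The PTGR1 call ended without array 3 of compound 40 (-0.98) or arrays 2 or 3 of compound 76 (-1.17 and -1.09), and that of OSGIN1 also without array 1 of compound 40. CYP4F11, a cytochrome P450 that hydroxylates long-chain fatty acids, was at 26.2, 20 and 20 with compound 40, 54.2, 97.9 and 94.2 with compound 76, and 20 on the 3 DMSO arrays. It was at the floor on 2 of 3 compound 40 arrays and on every DMSO array, so the log2 difference between compounds of -1.86 (SE 0.22, adjusted p = 0.000175) is limited by the floor.

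Among members of the same group that were not called, AKR1B10 had 1448, 2238 and 3219 with compound 40, 4982, 3437 and 5592 with compound 76, and 94.99, 152 and 222 with DMSO. Its groups did not overlap, but the log2 difference of -1.07 had a 95% interval of -2.09 to -0.04 and an adjusted p of 0.507. AKR1C3, another AKR1C enzyme, had 1052, 1210.2 and 1126 with compound 40 against 3263, 1942 and 2445 with compound 76, a difference of -1.14 (-2.08 to -0.21). Both genes were called higher than DMSO with each compound, by 3.89 and 4.96 for AKR1B10 and by 3.25 and 4.40 for AKR1C3, compound 40 first. NQO1, the quinone reductase often read as an NRF2 marker, had 4909, 4332 and 4357 with compound 40, 6152, 5413 and 5772 with compound 76, and 1774, 1813 and 1824 with DMSO. Its difference between compounds was -0.35 (-0.61 to -0.09), with no overlap and no call, while both compounds were called higher than DMSO. UGDH, which makes the glucuronic acid donor for drug conjugation, differed by -0.77 (-1.12 to -0.41, adjusted p = 0.0887).

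For further members the compounds overlapped and both stood above DMSO. CBR1, a carbonyl reductase, had 637, 626 and 523 with compound 40, 512, 808 and 620.4 with compound 76, and 221, 287 and 289 with DMSO. The compounds overlapped, with a difference of -0.10 (-0.58 to 0.38), and both were called higher than DMSO. BLVRB, biliverdin reductase B, which acts downstream of heme oxygenase, likewise differed by -0.10 (-0.69 to 0.49) and was called higher than DMSO with each compound.

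**Figure D2:**
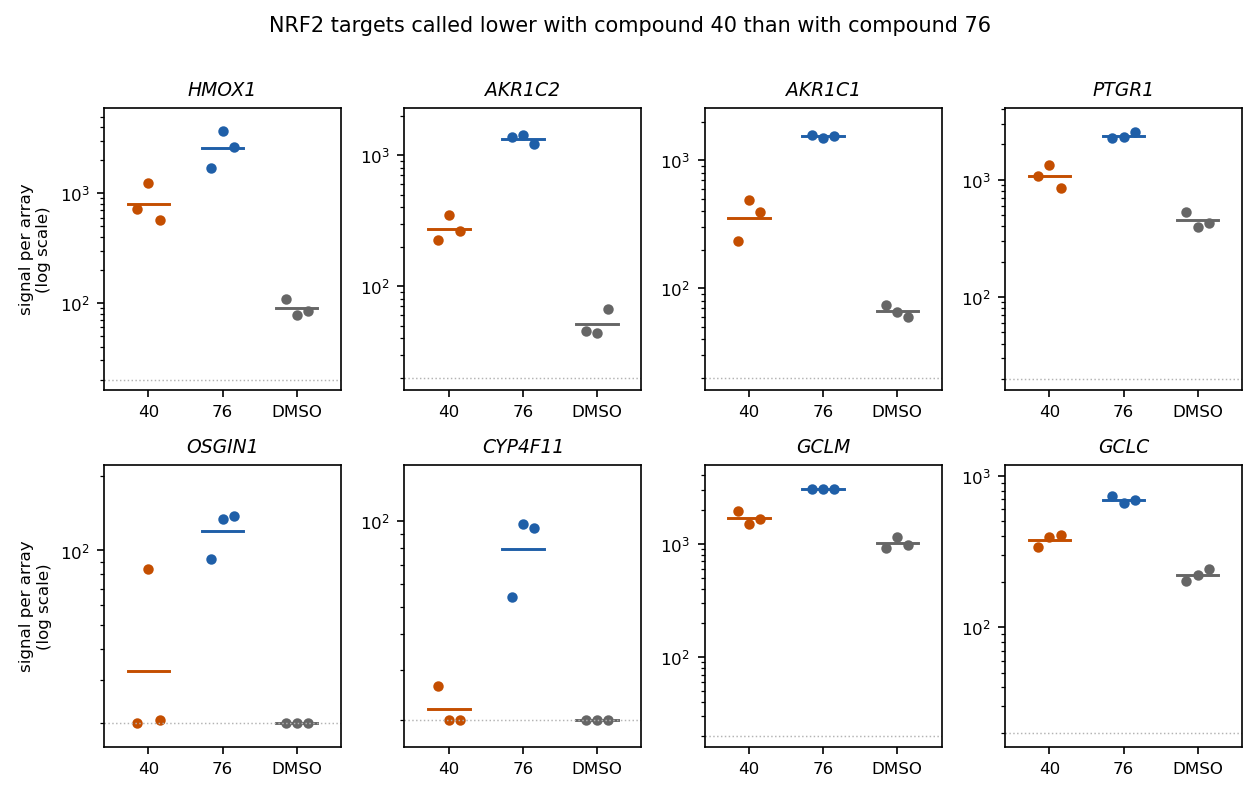
Normalized signal per array (log scale) of the 8 NRF2 targets called lower with compound 40 than with compound 76, in the compound 40, compound 76 and DMSO groups. Points are arrays, the bar is the mean of the log2 signals, and the dotted line is the floor of 20; in 6 of the panels the compound 40 arrays lie between the compound 76 and the DMSO arrays, and for OSGIN1 and CYP4F11 at least 1 compound 40 array is at the floor.

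The list of glutathione and thioredoxin genes followed, with 2 of 10 called lower, all 10 differences negative and a median of -0.43. GCLM, the modifier subunit of glutamate-cysteine ligase, which starts glutathione synthesis, had 1938, 1480.4 and 1645 with compound 40, 3065, 3045 and 3027 with compound 76, and 918, 1142 and 983 with DMSO. The compound 76 arrays were nearly level, and no group overlapped another. The difference was -0.86 (SE 0.11, adjusted p = 0.000667), and 2 of its 3 probe sets were called. GCLC, the catalytic subunit of the same enzyme, had 338, 392 and 407 with compound 40, 734, 666 and 692 with compound 76, and 203, 219.8 and 242 with DMSO. Its difference was -0.88 (SE 0.15, adjusted p = 0.00656), with 1 of 3 probe sets called and all 3 negative. Without array 3 of compound 76 it was -0.89 (adjusted p = 0.0538).

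SLC7A11, the cystine importer that supplies glutathione synthesis, had 796, 942 and 930.0 with compound 40, 1938, 2195 and 1850.2 with compound 76, and 459, 359 and 203 with DMSO. The reported probe set differed by -1.17 (-1.78 to -0.55, adjusted p = 0.149) without overlap, and another of its 3 probe sets was called lower. SRXN1, sulfiredoxin, and TXNRD1, thioredoxin reductase, differed by -0.90 (-1.50 to -0.30) and -0.46 (-0.76 to -0.16), without a call. TXN, thioredoxin itself, differed by -0.36 (-0.60 to -0.11) and was called higher than DMSO with compound 76. PRDX1, a peroxiredoxin, differed by -0.03 (-0.20 to 0.14).

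Enzymes that supply NADPH differed in sign by their reported probe sets, 3 positive and 2 negative. Of the 5 measured, 0 were called between the compounds in limma, and 1, PGD, had an unadjusted p below 0.05. Their median of 0.06 had no stable sign: it was -0.05 under median scaling, -0.20 without array 1 of compound 40 and -0.26 without array 2 of compound 76. It also rests on the probe sets chosen, since IDH1, an isocitrate dehydrogenase, had 1 of 3 probe sets above 0, with differences of -0.76 to 0.06, and TKT ranged over its 3 from -0.68 to 0.16. PGD, of the pentose phosphate pathway, had 1408, 1556 and 1464 with compound 40, 2108, 2009 and 2169.6 with compound 76, and 816, 629 and 692 with DMSO, a difference of -0.51 (-0.93 to -0.08). Over their 3 probe sets each, PGD ranged from -0.51 to 0.56 and ME1 from -0.91 to 0.14. TKT and TALDO1, further enzymes of that pathway, differed by 0.16 (-0.19 to 0.51) and 0.18 (-0.05 to 0.42). Against DMSO, 4 of the 5 were called higher with compound 40, against 0.436% of all genes, and 2 with compound 76, against 1.02%, or 3 with the replicate block, which added TALDO1 (adjusted p = 0.0462).

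NRF2 and its regulators came next. Of 7 measured, 0 were called between the compounds in limma and 1 was lower at an unadjusted p below 0.05. NFE2L2, which encodes NRF2, had 1139.9, 1284 and 964 with compound 40, 1370.0, 1005 and 988 with compound 76, and 1084, 1002 and 907 with DMSO, all overlapping. KEAP1 had 319.5, 427 and 460.0 with compound 40, 381, 538 and 526 with compound 76, and 243, 286 and 297 with DMSO. It was called higher than DMSO with compound 76 (0.79, adjusted p = 0.00502), as was the small MAF gene MAFG (1.11, adjusted p = 0.044). Between the compounds KEAP1 differed by -0.26 (-0.57 to 0.05) and MAFG by -0.11 (-0.68 to 0.46). BACH1, a repressor at antioxidant response elements, had 112, 69.9 and 90.9 with compound 40 against 122, 147 and 129 with compound 76, and was not called (-0.57, -1.06 to -0.07).

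The core antioxidant response element was searched in RefSeq promoters (GRCh38.p14, 250 bases before to 50 after the start) as TGACNNNGC on both strands, because many of the called genes are listed NRF2 targets. It was present in 10 of 26 NRF2 targets that had a promoter entry (38.5%), and in 2 of the 7 of these called lower (28.6%). It was in 4 of 18 genes called lower (22.2%), 0 of 3 called higher and 4687 of 35116 promoters (13.3%). A gene counted if any of its promoters matched, whereas the last share counts single promoters. Genes with several starts thus had more chances, and their shares cannot be set directly against 13.3%. The windows below carry it, in capitals with 10 flanking bases, in GCLM and CYP4F11, which were called lower, and in TXNRD1 and ME1, which were not.
GCLM: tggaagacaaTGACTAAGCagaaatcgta
CYP4F11: cagctcagggTGACACAGCatgggcacag
TXNRD1: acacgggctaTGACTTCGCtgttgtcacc
ME1: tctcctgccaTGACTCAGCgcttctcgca
Distances are counted from the start to the motif base farthest from it. The GCLM window lies at chr1:93909446-93909474, upstream of the gene, with its motif 34 bases before the start, on the strand opposite to the gene. CYP4F11 has its window at chr19:15935005-15935033, with the motif 156 bases before the start and also on the opposite strand. In TXNRD1 the window is at chr12:104215670-104215698, 99 bases before a start and on the gene's strand, and in ME1 at chr6:83431170-83431198, 137 bases before the start on the gene's strand. ME1, malic enzyme, had 890.2, 694 and 792 with compound 40 and 1201, 771 and 849 with compound 76, overlapping, so the motif was found in genes on either side of the call. A match is a description and not a site of binding, and no match says only that these letters are not in this window.

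Genes outside the NRF2 lists included all 3 genes called higher with compound 40 by their reported probe sets. USP16 had 675, 561 and 630.0 with compound 40, 270.1, 279 and 279 with compound 76, and 502, 597 and 531 with DMSO. The compound 76 arrays stood alone, and all 3 USP16 probe sets were called, with a reported difference of 1.17 (SE 0.12, adjusted p = 4.85e-05). Compound 40 differed from DMSO by 0.19 (-0.06 to 0.45), and compound 76 was called lower by a log2 difference of -0.97 (adjusted p = 4.47e-05). ROMO1 had 996, 831 and 843 with compound 40, 488, 497 and 539 with compound 76, and 873, 702 and 826 with DMSO. Again compound 40 and DMSO overlapped, with a difference between compounds of 0.81 (SE 0.13, adjusted p = 0.00655) and of -0.65 for compound 76 against DMSO (adjusted p = 0.00724). PTRHD1, which carries a peptidyl-tRNA hydrolase domain, had 279, 253 and 233 with compound 40, 162, 122 and 138 with compound 76, and 199, 183 and 239 with DMSO. It passed narrowly (0.86, SE 0.18, adjusted p = 0.0479), and leaving out any 1 of 5 of the 6 arrays ended the call.

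BEX5, of the brain-expressed X-linked family, had the largest difference of the 24 called genes by their reported probe sets, although a second, dimmer AKR1C2 probe set was called at -2.61. Its signals were 20, 51.0 and 27.7 with compound 40, 109, 206 and 208 with compound 76, and 20 on all DMSO arrays. Signals with compound 40 thus reached or neared the floor, and the difference of -2.45 (SE 0.26, adjusted p = 4.85e-05) is limited by it. NRCAM, a neuronal cell adhesion molecule, had 56.9, 64.2 and 87.8 with compound 40, 157, 211 and 267 with compound 76, and 20 on all DMSO arrays. It formed 3 separate steps, with a difference of -1.60 (SE 0.29, adjusted p = 0.0178), and was at least 3.42-fold higher than DMSO with compound 40 and at least 10.3-fold higher with compound 76. Without array 2 of compound 40, or arrays 2 or 3 of compound 76, it was not called between the compounds (-1.55, -1.58 and -1.41). The other NRCAM probe set differed by -1.09 and was not called.

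KLF4, a zinc finger transcription factor, had 77.9, 94.8 and 69.7 with compound 40, 237, 195 and 213 with compound 76, and 106, 107 and 106 with DMSO. Compound 40 lay below DMSO and compound 76 above it, with a difference between compounds of -1.42 (SE 0.24, adjusted p = 0.00834). Only the rise with compound 76 was called against DMSO (1.01, adjusted p = 0.0328), and compound 40 differed from DMSO by -0.41 (-0.90 to 0.09). The other KLF4 probe set differed between the compounds by -0.92 and was not called. KIFAP3, an adaptor of kinesin motors, had 156, 126 and 134 with compound 40, 218, 277 and 292 with compound 76, and 186, 164 and 197 with DMSO. It also lay on opposite sides of DMSO, by -0.40 and 0.52, neither of them called, with a difference between compounds of -0.91 (SE 0.18, adjusted p = 0.0424). OXCT1, which breaks down ketone bodies in mitochondria, had 365, 222 and 402 with compound 40, 621, 556 and 627 with compound 76, and 470.3, 422 and 402 with DMSO. Its difference was -0.91 (SE 0.18, adjusted p = 0.0406), and neither compound was called against DMSO. OXCT1 was called between the compounds in 2 of the 6 fits that left out 1 array.

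NAP1L5, of the nucleosome assembly protein family, had 33.0, 56.6 and 52.8 with compound 40, 95.1, 141 and 124 with compound 76, and 24.7, 29.2 and 40.0 with DMSO. Both of its probe sets were called lower, the reported one by -1.36 (adjusted p = 0.0381). LINC03011, a long non-coding RNA, had 79.4, 74.9 and 75.6 with compound 40, 166, 201 and 195 with compound 76, and 47.3, 53.3 and 46.3 with DMSO, a difference of -1.28 (adjusted p = 0.0376). For both genes compound 76 was called higher than DMSO and compound 40 was not. Each was called between the compounds in 1 of the 6 fits that left out 1 array.

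The other 6 called genes fell outside the rule for naming and were picked out after their values were seen. PRSS53, a serine protease, was at the floor of 20 on all compound 40 arrays, at 50.6, 77 and 73.5 with compound 76, and at 53.9, 72.9 and 52.3 with DMSO. It was at least 3.30-fold lower with compound 40 than with compound 76 and was the 1 gene of the 21 also called lower than DMSO with compound 40 (at least 2.95-fold). PDK4, AFP and KCNE4 were near the floor with both compound 40 and DMSO and higher with compound 76. Compound 76 signals were still dim, at 51.1, 48.4 and 53.9 for PDK4, 80.7, 96.8 and 79.5 for AFP, and 43.2, 34.6 and 39.6 for KCNE4. Of 2 PDK4 probe sets 1 was called, and the other differed by -0.17. Of 3 KCNE4 probe sets 1 was called, with differences from -0.96 to -0.36. In the 6 fits that left out 1 array PDK4 was called in 5, AFP in 3 and KCNE4 in 1. ASPH, an aspartate beta-hydroxylase, was bright, with 3687, 3472 and 4296 with compound 40, 6265, 5814 and 6378 with compound 76, and 1833, 1982 and 1927 with DMSO (-0.69, adjusted p = 0.00656), but 1 of its 8 probe sets was called. LPP, a LIM domain protein of cell adhesions, had 278, 171 and 204 with compound 40, 426, 380.3 and 363 with compound 76, and 394, 343 and 313 with DMSO (-0.87, adjusted p = 0.0376). Of the 8 LPP probe sets 1 was called, with differences from -0.87 to 0.19. LPP was called in 1 of the 6 fits that left out 1 array.

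**Figure D3:**
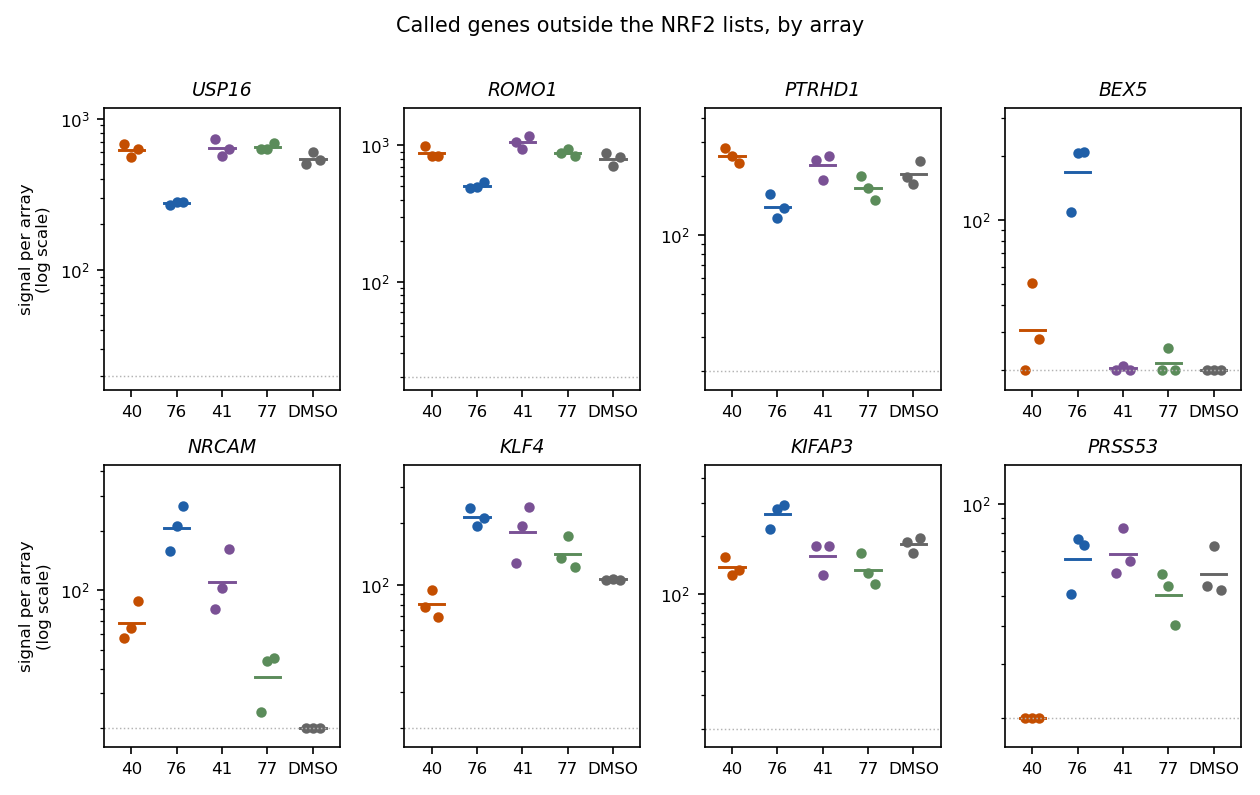
Normalized signal per array (log scale) of 8 called genes outside the NRF2 lists, in the compound 40, compound 76, compound 41, compound 77 and DMSO groups. Points are arrays, the bar is the mean of the log2 signals, and the dotted line is the floor of 20; USP16 and ROMO1 are lowest and BEX5 is highest in the compound 76 arrays among the 5 groups, and PRSS53 is at the floor on the 3 compound 40 arrays.

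No gene of the pathway named in the study's title was called between the compounds. Of 11 HIF pathway components measured, 0 were called and 1, EPAS1, was higher with compound 40 at an unadjusted p below 0.05. EPAS1 mRNA had 535, 418 and 386 with compound 40, 445, 261 and 253 with compound 76, and 556, 402 and 434 with DMSO. The compounds overlapped, with a difference of 0.52 (0.03 to 1.01, adjusted p = 0.501), and neither was called against DMSO. With the replicate block compound 76 was called lower than DMSO (-0.57, adjusted p = 0.0362). An array reads mRNA, so translation of HIF-2a was not measured. VHL, at 48.8, 50.6 and 48.6 with compound 40 and 67.0, 45.7 and 57.9 with compound 76, differed by -0.19 (-0.74 to 0.37). HIF1A had 1 single-gene probe set, which was not kept, with a highest signal of 28.6 on the 6 arrays.

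Of 30 HIF targets listed, 27 were measured and 0 were called between the compounds, with 3 higher and 1 lower at an unadjusted p below 0.05, against 3.76% and 6.16% of all genes. Their median log2 difference was 0.10, became 0.00 under median scaling and -0.04 without array 1 of compound 40. Against DMSO, 2 of the 27 were called lower with compound 40 (VEGFA and CCND1), against 0.41% of all genes. With compound 76, 5 were called lower and 1 higher, against 0.76% and 1.02%, and with the replicate block 9 and 1, against 1.41% and 1.8%. VEGFA, the vascular growth factor, had 731, 368 and 379.6 with compound 40, 706, 376 and 334 with compound 76, and 1436, 1139.9 and 926 with DMSO. Array 1 was the highest in each of the 3 groups. The compounds overlapped, and both were called lower than DMSO, by a log2 difference of -1.30 (adjusted p = 0.0366) for compound 40 and -1.37 (adjusted p = 0.0156) for compound 76. The difference between them was 0.07 with an interval of -0.54 to 0.68.

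CCND1, cyclin D1, had 553, 322 and 321 with compound 40, 462, 552 and 376 with compound 76, and 677, 959 and 664 with DMSO. Compound 40 was called lower than DMSO (-0.97, adjusted p = 0.0158). Compound 76 was not (-0.72, adjusted p = 0.062) but was with the replicate block (adjusted p = 0.0332), and the difference between compounds was -0.25 (-0.64 to 0.15). SLC2A1, the glucose transporter GLUT1, had 786, 693 and 498 with compound 40, 535, 526 and 423 with compound 76, and 1011, 876 and 784 with DMSO. It was called lower than DMSO with compound 76 (-0.85, adjusted p = 0.00675) and differed between compounds by 0.40 (0.05 to 0.74), which was not called.

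Larger point estimates came with wide intervals, from a fit that did not pair arrays by number. ENO2, the neuronal enolase, had 147, 124 and 97.2 with compound 40, 42.8, 68.1 and 74.3 with compound 76, and 269, 203 and 303 with DMSO. The 3 groups did not overlap, with a difference between compounds of 1.01 (0.40 to 1.62, adjusted p = 0.225). IGFBP3, an insulin-like growth factor binding protein, had 1545, 642 and 1131 with compound 40, 796, 289 and 509 with compound 76, and 2599, 1368 and 2245 with DMSO, a difference of 1.09 (0.17 to 2.01, adjusted p = 0.425). Both genes were called lower than DMSO with compound 76. ANGPTL4, a lipase inhibitor, went the other way, with 24.1, 108 and 61.4 with compound 40, 114, 269 and 188 with compound 76, and 20, 73.4 and 20 with DMSO. Its difference was -1.72 (-2.98 to -0.47, adjusted p = 0.331), and it was called higher than DMSO with compound 76 (2.54, adjusted p = 0.0337). At each array number compound 40 was the higher of the compounds for ENO2, IGFBP3, EPAS1 and SLC2A1, and the lower for ANGPTL4. For VEGFA and CCND1 the direction changed between array numbers.

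**Figure D4:**
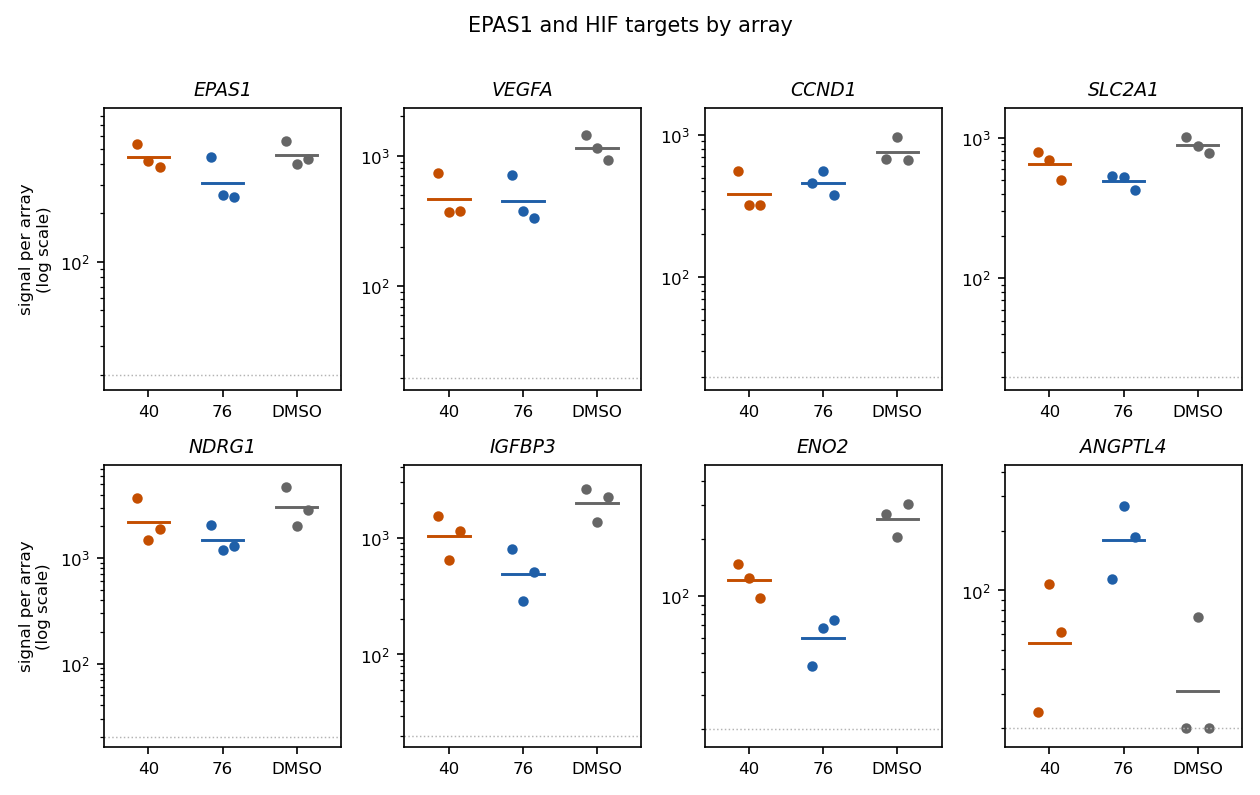
Normalized signal per array (log scale) of EPAS1 and 7 HIF targets in the compound 40, compound 76 and DMSO groups. Points are arrays, the bar is the mean of the log2 signals, and the dotted line is the floor of 20; the compound 40 and compound 76 arrays overlap for EPAS1, VEGFA, CCND1, SLC2A1, NDRG1 and IGFBP3 and are apart for ENO2 and ANGPTL4, and 0 of the 8 were called between the compounds.

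No gene of iron handling was called between the compounds either. Of 17 listed, 13 were measured, with 0 called and 2 higher and 1 lower at an unadjusted p below 0.05, against the same shares of all genes. TFRC, the transferrin receptor, whose mRNA carries iron-responsive elements, had 2850.4, 3361 and 3214 with compound 40, 3698, 3372 and 3311 with compound 76, and 1668, 1698 and 1929 with DMSO. Both compounds lay above DMSO on every array, though neither was called (0.83, adjusted p = 0.146, and 0.97, adjusted p = 0.0571, compound 40 first), and they differed from each other by -0.14 (-0.67 to 0.38). With the replicate block TFRC was called higher than DMSO with compound 76 (adjusted p = 0.0169). FTL, ferritin light chain, differed by -0.06 (-0.29 to 0.17), and ACO1, which encodes iron-regulatory protein 1, by 0.08 (-0.30 to 0.47). STEAP3, an iron reductase of endosomes, had 239.7, 305 and 208 with compound 40, 134, 201 and 199 with compound 76, and 324, 299.9 and 275 with DMSO. It was called lower than DMSO with compound 76 (-0.77, adjusted p = 0.0211), and the difference between compounds of 0.50 (0.14 to 0.86) was not called.

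Across the 26 gene lists other than cell markers, 2 held a gene called between the compounds, both of NRF2 targets, and 24 held none. Under other settings a few members of 3 further lists were called. IFIT2 was lower with the replicate block and with array weights (adjusted p = 0.0102 and 0.0441), and IFIT3 with the block (adjusted p = 4.31e-05); both belong to the interferon response. HSP90B1, an ER chaperone, was higher under the same 2 settings (adjusted p = 0.0239 and 0.0437). PSMD1, a proteasome subunit, was higher with the block (adjusted p = 0.0127) and without array 1 of compound 40 (adjusted p = 0.0488). The 23 lists other than NRF2 targets had medians between -0.44 (interferon response) and 0.30 (cholesterol synthesis). The list of metallothioneins and zinc genes had 3 of 8 members called lower than DMSO with compound 40, against 0.41% of all genes. With compound 76 it had 5 of 8, against 0.76%. Metallothioneins bind zinc and copper, and the 8 also include MTF1 and SLC30A1, which are not metallothioneins. The median difference of the list between the compounds was -0.07, which became 0.03 in signals as deposited. MT1F, for example, had 568, 1079 and 842 with compound 40, 626, 997 and 844 with compound 76, and 1448, 1721 and 1540.3 with DMSO, a difference between compounds of -0.01 (-0.43 to 0.41).

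**Figure D5:**
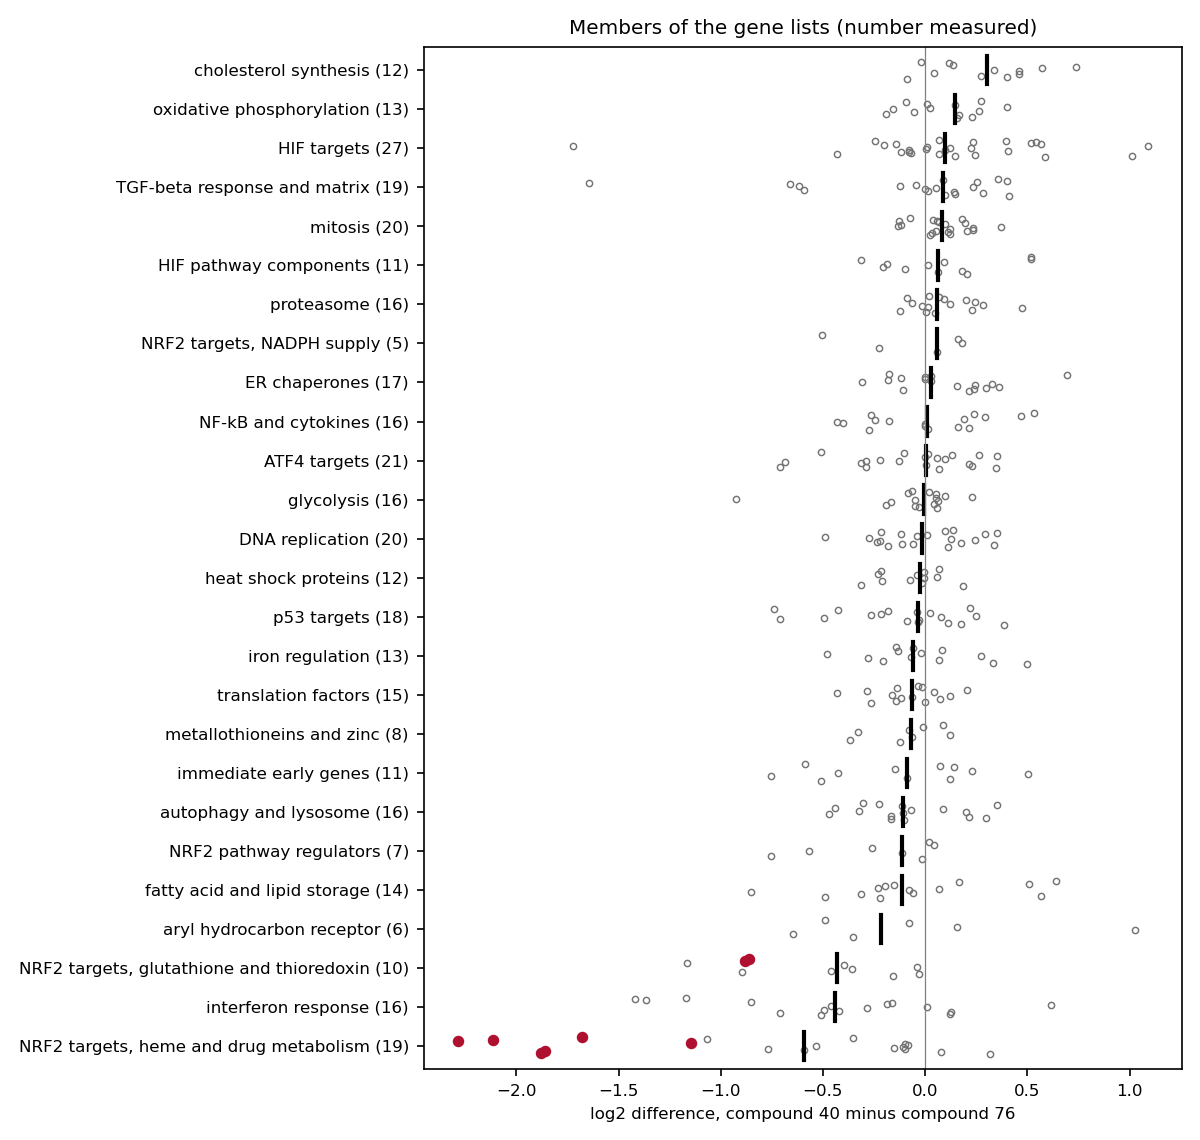
Log2 difference between compound 40 and compound 76 (horizontal axis) for the measured members of 26 gene lists (rows, number measured in brackets). Circles are genes, the black bar is the list's median, and the 8 called genes are in red; they lie in 2 lists of NRF2 targets, between -2.29 and -0.86.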

How the data were processed

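The value table, as deposited, holds 1 linear signal intensity for each probe set and array. The authors summarised probes within each array with MAS5, per the submitters' processing notes, which give no version. Its scaling target is not given in the sources used here. Per the labels, a floor of 20 and a ceiling of 16000 belong to the method; the deposited table holds lower values and none above the ceiling.

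Quantile normalization was applied to all 26 arrays, leaving out 62 control probe sets, and signals were then bounded at 20 and 16000 and put on the log2 scale. A probe set was kept where 3 or more of the 24 arrays in the 8 replicated groups reached their array's median, which left 35013 of 54613. The kept values at the floor made up 16.7% to 20.8% of an array, and the number of arrays limits the precision. limma 3.58.1 in R 4.3.3 (lmFit, eBayes with a trend) fitted 24 arrays with 1 mean per group and 16 residual degrees of freedom. All differences are compound 40 minus compound 76, or compound minus DMSO, on the log2 scale, with 95% intervals. Calls used the Benjamini-Hochberg adjusted p below 0.05 over 35013 probe sets. Tested on simulated data, 49 of 50 probe sets raised and 45 of 50 lowered by 2 on the log2 scale were called, and 22 and 25 of 50 for a change of 1, in compound 40 against compound 76 over 35013 probe sets. Among the unchanged probe sets 5 were called. The changed ones were all above the median mean signal and had independent normal noise. Recovery of dim probe sets, or with an array that stands apart, was not tested.

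Of the kept probe sets, 28327 had 1 gene in the platform annotation, 1297 several and 5389 none; 28304 matched RefSeq GRCh38.p14 and 0 symbols changed. Each gene is represented by the brightest of its single-gene probe sets over the 24 arrays, which gave 15124 genes. Named genes were up to 12 rises and 12 falls among called genes without overlap whose brighter group reached the 70th percentile of signal, up to 5 called members of a list, and members of the HIF, iron and NRF2 lists. The 30 lists (446 entries), the marker lists and the arrays compared were chosen with earlier results of these data known. Same-numbered compound 76 and DMSO arrays, whose titles give the numbers, had deviations from their group means that correlated at 0.275, 0.184 and 0.184, so the number was taken to pair them as a hint from the data, and blocked values stand beside results it changes. Alternatives covered normalization, floor, filter, arrays fitted, replicate block, array weights and arrays left out. The single arrays pTR and pTV were normalized only; the files name no genome build.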

Additional observations from a re-analysis of the deposited data

Results flagged for a closer look

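KLF4 and KIFAP3 drew attention because the compounds lay on opposite sides of the vehicle: every compound 40 array was below every DMSO array and every compound 76 array was above them. The difference between the compounds was itself tested by limma, at -1.42 on the log2 scale for KLF4 (adjusted p = 0.00834) and -0.91 for KIFAP3 (adjusted p = 0.0424). KLF4 was called in 4 of the 6 fits that left out 1 of these arrays, all but those without array 3 of either compound. KIFAP3 was called in 2 of the 6, those without array 1 of either compound. Against DMSO, compound 40 was called for neither gene (limma adjusted p = 0.539 for KLF4 and 0.399 for KIFAP3), and compound 76 for KLF4 only. The arrays titled Blk overlapped those of compound 40, with 79.3, 109 and 68.1 for KLF4 and 165, 147 and 151 for KIFAP3. How many of all genes show this pattern was not counted.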

How the results depend on the processing

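Between the compounds, 44 probe sets were called. The count was 21 with a floor of 1, 28 without the filter on dim probe sets, 0 in a fit to the 6 arrays alone (2692 at an unadjusted p below 0.05), 149 with array weights and 17 with array 1 of compound 40 alone in its group. Leaving out 1 array gave 11 to 241, with 241 without array 1 and 24 without array 2 of compound 40, and 23 without array 2 and 11 without array 3 of compound 76. For compound 40 against DMSO, called in 240 probe sets, the count was 100 under median scaling, 149 without the filter, 6 in a fit to those groups alone, 471 with array weights and 25 with array 1 of compound 40 alone. Leaving out 1 array gave 50 to 622: 622, 70 and 139 without arrays 1, 2 and 3 of compound 40, and 98, 50 and 122 without those of DMSO. For compound 76 against DMSO, called in 474, it was 126 in a fit to those groups alone and 1291 with array weights. Leaving out 1 array gave 226 to 381, with 273 and 226 without arrays 2 and 3 of compound 76 and 267, 277 and 267 without those of DMSO. Fewer arrays in the fit leave a less certain spread; the cause of the other shifts was not tested. Signals as deposited turned the split to 24 higher and 23 lower between the compounds and to 154 and 60, against 119 and 121, for compound 40 over DMSO. Median scaling turned it to 212 and 111, against 262 and 212, for compound 76 over DMSO. Apart from the replicate block, the remaining alternatives moved these counts by less than 1.5 times. For the compound 40 comparisons the replicate numbers of the titles did not meet the rule for pairing (every correlation of deviations over 0.1): same-numbered arrays correlated at 0.223, 0.157 and 0.0507 with compound 76 and at 0.141, 0.0769 and 0.0964 with DMSO, although every array correlated best with its own number. Compound 76 against DMSO met it. With the replicate block, 135 probe sets were called between the compounds, 534 for compound 40 against DMSO and 849 for compound 76 against DMSO; the changed calls of the last stand in the report. Of the 24 called genes, 24 were called with the block and with array weights, 22 under cyclic loess, 21 under median scaling, 18 as deposited, 14 without the filter, 11 with a floor of 1 and 16 of 18 measured under the stricter filter; all kept their direction in each setting. Leaving out 1 array kept 6 to 21 of the 24, and 6 genes (USP16, ROMO1, BEX5, AKR1C2, CYP4F11 and GCLM) were called in all 6 such fits. VEGFA changed sign between the compounds, to -0.054 under median scaling, -0.25 without array 1 of compound 40, and -0.056 and -0.14 without arrays 2 and 3 of compound 76 (range of the fits without 1 array -0.25 to 0.40), and CCND1 to 0.27 with array 1 of compound 40 alone, none of them called. Between 0 and 10 NRF2 targets were called lower and 0 higher under these settings, and their median stayed between -0.47 and -0.29.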

Other observations

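Interferon-response genes were chosen for this paragraph after their values were seen. Of 16 measured, 0 were called between the compounds in limma, 5 were lower and 0 higher with compound 40 at an unadjusted p below 0.05, and 7 had all 3 compound 40 arrays below the 3 compound 76 arrays, against 6.16%, 3.76% and 7.75% of all genes in that order. With the replicate block 2 members were called lower, IFIT2 and IFIT3, and with array weights 1, IFIT2. IFIT2, an interferon-induced protein that binds viral RNA, had 91.9, 127 and 105 with compound 40, 217, 313 and 344 with compound 76, and 50.7, 149.9 and 133 with DMSO. The compounds did not overlap, the difference was -1.42 (-2.17 to -0.66, adjusted p = 0.153), and compound 76 was called higher than DMSO (1.51, adjusted p = 0.036). IFIT1 differed by -1.17 (-1.85 to -0.49) and IFIT3 by -1.36 (-2.07 to -0.66), neither of them called without the block. Cholesterol synthesis had 12 measured members with 0 called, 2 higher and 0 lower at an unadjusted p below 0.05, and a median of 0.30 that was 0.13 without array 1 of compound 40. IDI1, an isomerase of that pathway, had 1069.7, 995 and 991 with compound 40, 712, 536 and 592 with compound 76, and 838, 649 and 975 with DMSO, a difference of 0.74 (0.20 to 1.28, adjusted p = 0.338).

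The 2 further compounds of the series give values beside these, with no comparison made. AKR1C2 averaged 627 ± 74.8 with compound 41 and 85.6 ± 49.4 with compound 77 (SD, n = 3 each). HMOX1 averaged 2684 ± 839 with compound 41 and 110.1 ± 18.8 with compound 77, and GCLM 2702 ± 56.8 and 954 ± 12.6. USP16 averaged 640.0 ± 83.1 with compound 41 and 649 ± 38.4 with compound 77, and ROMO1 1057 ± 115 and 888 ± 50.6. BEX5 was at 20.3 ± 0.49 and 21.7 ± 2.95 in these groups.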
